A study of Rattus norvegicus with 20 samples.

Results

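The transcripts described here are 188 array features of the rat fetal testis without a gene symbol on the array, each brighter on all 4 arrays of MEHP-treated litters than on any of the 4 control arrays. A probe was taken if it measured a transcript (not a control spot), if the scanner called it well above background on all 8 of those arrays, and if its name was a provisional one (a predicted locus, an Ensembl or GenBank identifier, a cluster number or only the probe number). Its level, the log2 processed signal minus the 75th percentile of the array, had to be higher on the lowest MEHP array than on the highest control array, with a mean difference over 0.75. Of 41012 probes on the array, 13563 unnamed probes were bright enough to be judged, and the 188 are 1.39% of them. The members were chosen by their MEHP and control values, so that difference is given as a description and has no test.

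The rats were of the Han Wistar strain, and all dams were gavaged daily on gestation days 12 to 19. Controls received corn oil, and the other groups received 500 mg/kg of DEHP (di(2-ethylhexyl) phthalate, a plasticiser), MEHP (mono(2-ethylhexyl) phthalate, the monoester that the body forms from DEHP), TOTM (tris(2-ethylhexyl) trimellitate, a plasticiser used in place of phthalates) or a compound labelled EHO. The authors' deposited table heads the EHO group EH. There were 20 1-colour arrays, 4 for each treatment, and each held RNA of 1 litter, for which the testes of 3 or more pups had been pooled. The design asked how TOTM given to the dam compares with the other compounds in the fetal testis.

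Many of the annotated members resemble abundant housekeeping genes. When a messenger RNA is reverse-transcribed and inserted elsewhere in the genome, it leaves a processed pseudogene, which usually lacks the introns and the promoter of its gene. Genes with very abundant messengers, such as those of ribosomal proteins, translation factors, glycolytic enzymes and heat shock proteins, have left many such copies in rodent genomes. The text attached to 65 of the 188 probes names a ribosomal protein, 67 carry another text and 56 carry none. These are 20.5%, 0.59% and 2.95% of the unnamed probes of each kind that could be judged. Of 42 members that matched a gene in the RefSeq table of assembly GRCr8, 27 are now listed as pseudogenes (9.38% of the matched pseudogenes that could be judged) and 15 as protein-coding (0.378%), and 146 had no match. All 42 lay on the same chromosome in rn4, the build of the array's coordinates, and in GRCr8. A probe for a copy can bind the messenger of its gene as well, so the signal of a copy and of its gene cannot be told apart by these values alone. An rn4 gene annotation and the probe sequences were not used here.

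RefSeq promoters (GRCr8) were found for 11 of the matched members. All 11 are listed as protein-coding, so no pseudogene is among them. The 100 bases before the annotated start are shown for Rpl35, which encodes a protein of the large ribosomal subunit, for its copies Rpl35l4 and Rpl35l2, which are both members, and for Ranbp2 and Dcaf6, the 2 members with a full gene name among those most raised by EHO. Ranbp2 encodes a large nucleoporin of the cytoplasmic face of the nuclear pore, and Dcaf6 a substrate receptor of a ubiquitin ligase. Capitals mark GGAAG or its reverse complement CTTCC, the core of sites bound by ETS factors, searched on both strands as the only motif.
Rpl35 (chr3:43165922-43166021, minus strand): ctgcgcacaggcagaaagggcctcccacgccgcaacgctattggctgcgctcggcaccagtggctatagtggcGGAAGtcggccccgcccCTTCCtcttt
Rpl35l4 (chr9:113375313-113375412, minus strand): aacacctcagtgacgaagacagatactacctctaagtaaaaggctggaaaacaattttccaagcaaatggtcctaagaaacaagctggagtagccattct
Rpl35l2 (chr8:38897579-38897678, minus strand): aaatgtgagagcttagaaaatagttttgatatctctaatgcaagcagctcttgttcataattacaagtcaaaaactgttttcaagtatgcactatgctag
Ranbp2 (chr20:26985214-26985313, plus strand): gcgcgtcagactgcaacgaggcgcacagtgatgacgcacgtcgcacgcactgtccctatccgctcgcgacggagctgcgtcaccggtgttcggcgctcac
Dcaf6 (chr13:80260511-80260610, minus strand): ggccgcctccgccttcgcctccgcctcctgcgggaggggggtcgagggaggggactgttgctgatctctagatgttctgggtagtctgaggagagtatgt
Over 250 upstream bases, G and C made up 62.0% for Rpl35 but 40.0% for Rpl35l4 and 36.4% for Rpl35l2. The longest run that Rpl35 shared there was 8 bases with Rpl35l4 and 7 with Rpl35l2. The motif occurred 4 times in those 250 bases of Rpl35, once in those of Ranbp2 outside the part shown, and not in this window of either copy or of Dcaf6. It was found for 5 of the 11 members with a sequence, Ranbp2, Pan3, Pithd1, 1700009N14Rikl and the S20-like Rps20l3, against 63.3% of the 27457 upstream sequences of that length in the table. The bases upstream of both Rpl35 copies thus share no run longer than these with those upstream of Rpl35.

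Several facts of the arrays bear on everything that follows. Each compound had its own slide and its own scan, and the effects of slide and compound cannot be told apart. The distance between MEHP arrays 1 and 2 was 0.851 in units of the noise of repeated spots. Pairs within a group had a median distance of 2.48, so these 2 arrays were counted as 1 sample in the fits. MEHP 3 lay at 1.38 from control 2 and MEHP 4 at 1.47 from DEHP 3, the closest of all 190 pairs after MEHP 1 and 2. The summed level of 5 fetal Leydig cell markers was 5.14 and 5.20 on MEHP 1 and 2, but 7.55 on MEHP 3 and 6.90 on MEHP 4. It was 6.75 to 7.39 on the control arrays and 6.30 to 7.10 on DEHP. The arrays labelled MEHP 3 and MEHP 4 thus resembled arrays of other groups, and whether arrays share RNA or carry crossed labels was not tested. What the MEHP values stand for is uncertain to that extent. The members differed even within these close pairs of arrays from different slides. MEHP 3 was above control 2 in all 188 members, which the rule fixed, with a median difference of 1.23. MEHP 4 was above DEHP 3 in 177 of the 188, with a median of 0.98. For all unnamed probes that could be judged these medians were -0.01 and -0.04. The part of the slide in these differences was not tested. With MEHP 1 and 2 alone the rule found 311 transcripts, 158 of them among the 188, and with MEHP 3 and 4 alone 211, 177 of them among the 188. Without MEHP 3 the rule found 227 transcripts, without MEHP 4 it found 202, and without control 2 it found 231. The EHO arrays were dimmer: the scanner called 46.1% to 63.5% of their spots well above background, and 63.9% to 79.8% of those on the other arrays. The local background was 44.8 to 45.9 intensity units on the MEHP arrays, 49.4 to 53.7 on EHO and 54.6 to 62.4 on the other groups. The slides were scanned in the order control, DEHP, TOTM, EHO and MEHP, at 0, 15.5, 31.1, 62.2 and 93.3 minutes. The mean over arrays of the members' median level rose in the same order, at 0.60, 0.70, 0.76, 1.52 and 1.86. The part of scan order and of local background in the results was not tested. Of the fetal Leydig cell markers, 5 of 5 were well above background on all 20 arrays, as were 3 of the 4 measured Sertoli and 3 of the 4 measured gonocyte markers, but 0 of 3 adrenal cortex markers. The adrenal marker Cyp11b1 was well above background on 19 arrays, Mc2r on 5 and Cyp21a1 on 3.

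The members fell into 2 kinds according to marks set by the scanner software. On 36 of them at least 1 spot was marked as non-uniform or as an outlier among repeated spots, and on 30 of these the mark was present on all 4 control arrays. Between 31 and 34 of the 36 were marked on each control array, and 0 to 2 on each of the other 16 arrays. On the control arrays the brightness of the pixels within these spots had an SD of 88.9% to 94.3% of the spot's mean (array medians), whereas on the other arrays it was 6.45% to 9.87%. The other 152 members had pixel SDs of 9.12% to 11.2% on all 20 arrays. This division was made after the values were seen, from the marks and not from the levels.

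**Figure D1:**
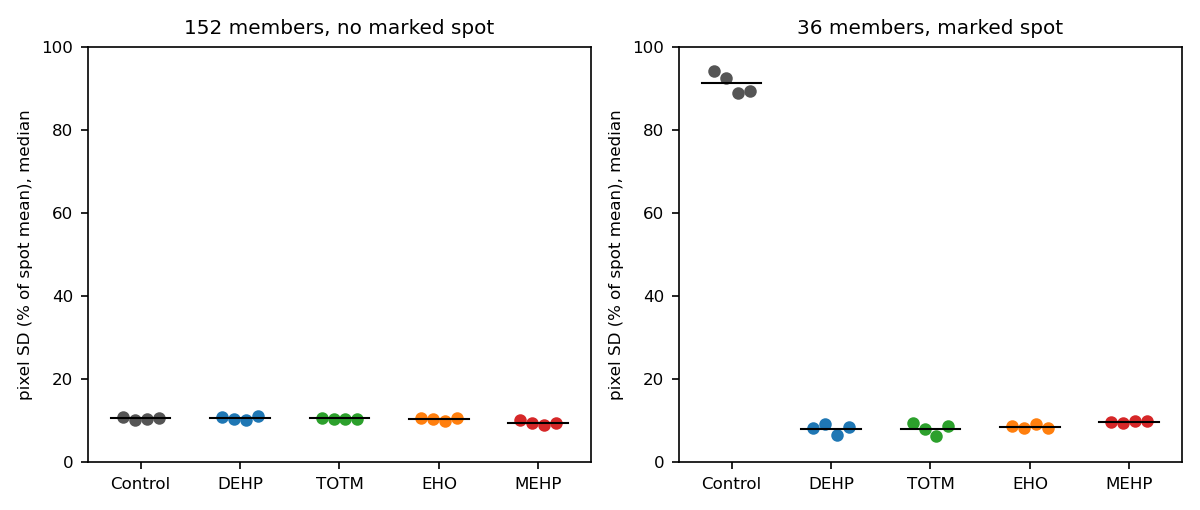
Median pixel SD within the spot, in percent of the spot's mean (vertical axis), for the 152 members with no marked spot (left) and the 36 with one (right); each point is 1 array and each line the mean of 4 arrays of a group. The 4 control arrays stand at 88.9% to 94.3% in the right panel, and every other point of both panels lies at or below 11.2%.

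As a group the 36 marked members were low on the control slide. Their median level was 5.80 to 6.29 on the 4 control arrays, 7.32 to 7.45 on DEHP, 7.16 to 7.40 on TOTM, 7.17 to 7.67 on EHO and 7.35 to 7.49 on MEHP. Controls therefore stood below all 16 treated arrays, which overlapped one another. Single members were less uniform: every DEHP array was above every control array in 28 of the 36, every TOTM array in 23 and every EHO array in 31, and the smallest differences from control were 0.04 with DEHP and 0.08 with TOTM. RGD1565054_predicted, a locus like the gene of the acidic ribosomal protein P1 at rn4 chrX:82975725-82975784 and the member with the largest MEHP minus control difference (2.43), belongs here. Its levels were 4.86, 5.44, 5.13 and 5.04 in controls, 7.34, 7.50, 7.79 and 7.57 with MEHP, and 7.30, 7.25, 7.28 and 7.31 with DEHP. With TOTM they were 7.07, 7.11, 7.28 and 7.36, and with EHO 7.43, 7.39, 6.88 and 7.25. Levels on the DEHP, TOTM and EHO arrays were thus about as high as on MEHP, and the control arrays, with their marked spots, did not overlap with any of them.

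The same form was seen for XM_222771, an L7-like copy, whose controls ran from 5.39 to 5.73 and whose treated arrays ran from 7.17 to 7.63. It was seen for Rps20l3 (listed as LOC679899), an S20-like copy, with 6.22 to 6.58 in controls and 7.31 to 7.95 on treated arrays. The probe A_44_P431452, which has no text, had 5.66 to 6.39 in controls and 7.51 to 8.09 on treated arrays. The brightest members were marked too, but 2 of them also rose with EHO. BM986231, an expressed sequence tag said to resemble ribosomal RNA, averaged 8.79 ± 0.21 (SD, n = 4) in controls and 10.05 ± 0.34 with EHO (n = 4). Its EHO arrays (9.60 to 10.44) lay above those of TOTM (9.12 to 9.38) and DEHP (9.02 to 9.56). EHO minus TOTM was 0.79 ± 0.20 (SE, limma adjusted p = 0.0192), and EHO minus DEHP was not called (adjusted p = 0.0569). The S14-like ENSRNOT00000042949 had 8.30 to 8.56 in controls, 9.19 to 9.60 with MEHP and 9.34 to 9.80 with EHO. It had 9.02 to 9.28 with DEHP and 8.94 to 9.13 with TOTM. EHO was called higher than TOTM (0.60 ± 0.13, limma adjusted p = 0.00792) and DEHP (0.47 ± 0.13, adjusted p = 0.043). Rpl7a-ps1 (LOC311687), the S12-like RGD1560716_predicted and the L37a-like ENSRNOT00000050705 complete the 5 with the highest level over all arrays.

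The 152 members with no marked spot were high with MEHP and EHO and close to control with DEHP and TOTM. Their median level was -0.20 to 0.12 on the control arrays, -0.18 to 0.09 on DEHP, -0.20 to 0.20 on TOTM, 0.65 to 0.88 on EHO and 0.96 to 1.31 on MEHP. Control, DEHP and TOTM arrays overlapped, and every EHO and every MEHP array lay above them. The MEHP minus control difference had a median of 1.03 over these 152 (0.76 to 2.34, fixed by the rule). Against the same 4 control arrays, the median was 0.72 for EHO, with 151 of 152 above 0, and it was 0.02 for DEHP and 0.09 for TOTM. Every EHO array was above every control array in 119 of the 152, every DEHP array in 1 and every TOTM array in 7, where 10.3%, 1.46% and 4.64% of all probes well above background on those arrays were. Because the controls are shared, these 4 medians stand side by side and are not independent of each other. In testis RNA of whole organs, more cells of a type and more RNA per cell cannot be told apart.

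**Figure D2:**
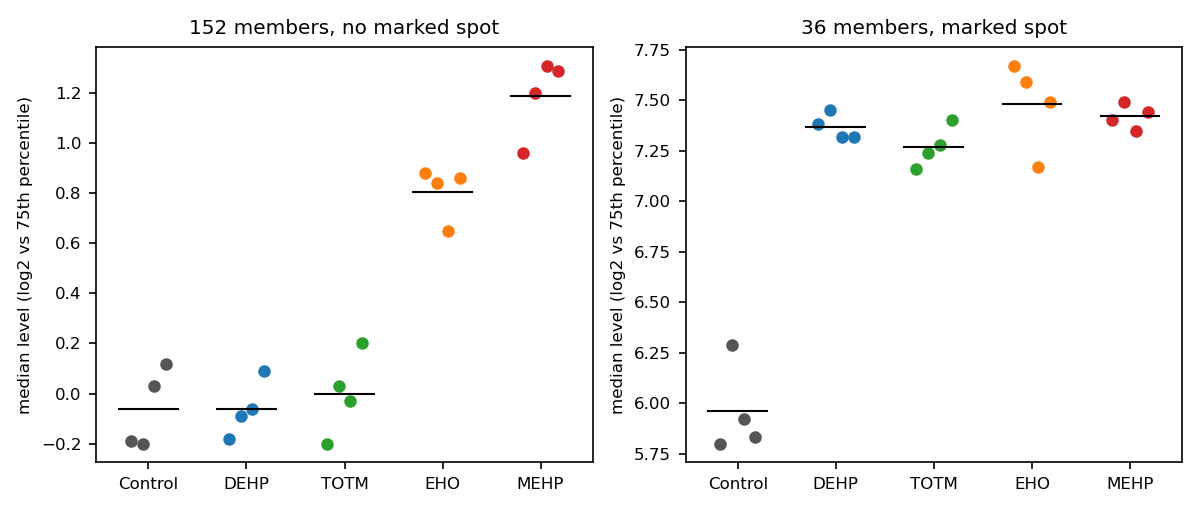
Median level on each array (log2 processed signal minus the array's 75th percentile, vertical axis) of the 152 members with no marked spot (left) and the 36 with one (right); points are arrays and lines the mean of 4 arrays of a group. On the left the EHO (0.65 to 0.88) and MEHP (0.96 to 1.31) arrays lie above the rest, and on the right only the control arrays (5.80 to 6.29) stand apart.

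Of these 152, 84 had all EHO and MEHP arrays above all control, DEHP and TOTM arrays, as had 1.11% of all probes well above background on all 20 arrays. In 66 of the 152 every MEHP array was above every EHO array, and in 0 was every MEHP array below every EHO array. These counts use the MEHP and control arrays that chose the members and are given as a description. MEHP had the higher mean in 140.

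EHO, TOTM and DEHP arrays took no part in choosing the members, so comparisons among them do not reuse the values of the rule. Full independence is not known, because MEHP 4 lay close to DEHP 3 and shared RNA or crossed labels were not tested. The members were also chosen with earlier results of these data known. With limma and Benjamini-Hochberg adjustment over 28113 probes, 108 of the 188 members were higher with EHO than with TOTM (adjusted p under 0.05) and none lower. Of all probes tested, 8.39% were higher and 13.5% lower. The members' median difference was 0.54 (log2), where that of all probes was -0.18. Against DEHP, 104 members were higher with EHO and none lower, while 3.62% of all probes were higher and 3.13% lower. The median was 0.62 for the members and -0.18 for all probes. The share of all probes depended on the filter. Among the 17625 probes well above background on all 20 arrays, 178 were members. Against TOTM, 110 of these members were higher, with 13.5% of those probes higher, 7.99% lower and a median of 0.01. Against DEHP, 117 were higher, with 7.57% of those probes higher, 3.89% lower and a median of -0.01. The members' medians were again 0.54 and 0.62. In total 95 members were called higher in both comparisons, which share the EHO arrays. Without the MEHP arrays in the fit, 102 members were higher in each comparison. Of the 28113 probes, 2058 were then higher and 1972 lower against TOTM, and 1004 higher and 619 lower against DEHP. None lower holds for the 75th percentile scaling, and under quantile normalization of background-corrected signals 118 members were higher and 2 lower in each comparison. Of all 28113 probes, 2685 were then higher and 2633 lower against TOTM, and 1448 higher and 993 lower against DEHP.

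The calls lay mostly in the members with no marked spot. Of those 152, 99 were higher with EHO than with TOTM (median 0.62) and 101 higher than with DEHP (median 0.69), with 92 called in both. Of the 36 marked members, 9 and 3 were called. Complete separation was seen as well: in 106 of the 188 every EHO array was above every TOTM array, and in 134 every EHO array was above every DEHP array. Among all probes well above background on those arrays, 15.7% and 10.9% separated in that direction. Fitting only the arrays of the 2 groups left 69 members higher against TOTM (3.41% of all probes) and 62 against DEHP (0.854%). Leaving out the 2 dimmest EHO arrays, 1 and 2, left 63 (2.49%) and 64 (0.868%). The calls over all probes moved far more with single EHO arrays: there were 6165 against TOTM, 1876 without EHO 1, 12197 without EHO 3 and 12384 without EHO 4, while the members called stayed between 81 and 118.

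**Figure D3:**
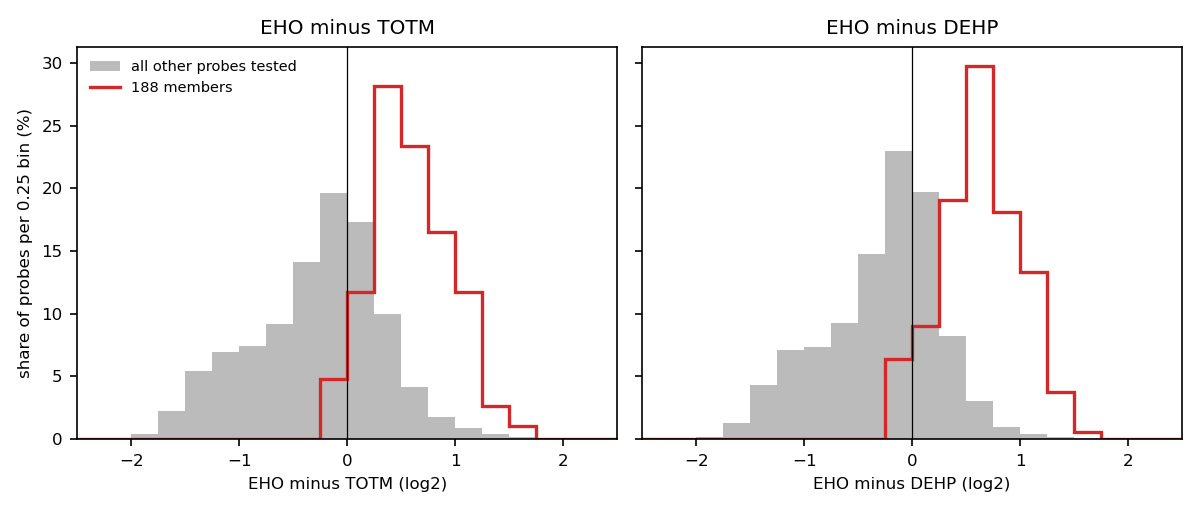
Distribution of the fitted log2 difference between EHO and TOTM (left) and EHO and DEHP (right), in bins of 0.25, as the share of the 188 members (red outline) and of all other probes tested (grey). The members lie mainly above 0, with medians of 0.54 and 0.62, and the medians of all probes are -0.18 in both.

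Cell type markers also differed between these arrays. The summed level of 5 fetal Leydig markers was 7.03 to 7.47 on EHO arrays and 7.49 to 7.67 on TOTM, without overlap, and 6.30 to 7.10 on DEHP. That of 2 measured mesonephric duct markers was 0.88 to 1.26 on EHO, 1.30 to 1.52 on TOTM and 1.22 to 1.88 on DEHP. That of 3 adrenal cortex markers was -0.95 to -0.07 on EHO, 0.24 or more on TOTM and -1.42 to -1.02 on DEHP. The mesonephric sum rests mainly on Lcn2, as Cdh16 was well above background on only 7 arrays. The adrenal sum rests mainly on Cyp11b1. The summed level of 3 measured peritubular and interstitial markers was 4.37 to 4.93 on EHO arrays, 3.44 to 3.93 on TOTM and 3.91 to 4.11 on DEHP, and 3 of 3 were well above background on all 20 arrays. It was 3.94 to 4.10 on MEHP and 3.83 to 4.16 in controls. The summed level of 2 measured erythroid markers was 4.38 to 5.71 on EHO, 3.62 to 4.51 on TOTM, 3.33 to 5.12 on DEHP, 3.54 to 5.02 on MEHP and 3.96 to 4.49 in controls. The peritubular list separated EHO from TOTM and DEHP, while the erythroid list overlapped. The Leydig, mesonephric and adrenal lists were lower with EHO than with TOTM. On the MEHP arrays the steroidogenic genes Star and Cyp11a1 averaged 1.20 and 2.14, against 3.30 and 3.54 in controls, and the Leydig hormone gene Insl3 averaged 4.62 against 5.87. From the same list, Hsd3b1 averaged 2.97 against 3.88, and Cyp17a1 was nearly unchanged at 5.09 against 5.18. These means pool unlike arrays: the summed level was 5.14 and 5.20 on MEHP 1 and 2 and 7.55 on MEHP 3. The part of these markers in the results was not tested.

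Between TOTM and DEHP no member reached the threshold. None of the 188 was called between TOTM and DEHP by limma with Benjamini-Hochberg adjustment, nor was any of the 28113 probes tested (0.0%), and the members' median difference was 0.05. At an unadjusted p under 0.05, 10 of the 188 members and 867 of all probes passed. The quartiles of the members' differences were -0.05 and 0.14, the extremes -0.70 and 0.60, and the median standard error 0.15. Every TOTM array was above every DEHP array in 5 of the 188, where 2.0% of all probes were.

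Copies of ribosomal protein genes formed the largest named group. In the comparison that chose the members, 47 of 222 unmarked, unnamed probes with a ribosomal protein text passed the rule (21.2%), against 105 of 13099 without such a text (0.802%). Of those 47, 36 were higher with EHO than with TOTM (median 0.78) and 33 higher than with DEHP (median 0.79), and none was lower. Unnamed ribosomal protein probes that could be judged but were not members had a median EHO minus TOTM difference of 0.15, with 47 of 252 higher and 7 lower. For the 103 named ribosomal protein probes the median was 0.16, with 12 higher and 1 lower. Both of these sets include marked probes, and only 23 of the 103 named ones were unmarked. With marked ones included, 38 of the 65 ribosomal members were higher (median 0.60). Both sets were also brighter, with control array medians of 4.72 to 5.02 and 6.79 to 7.12, against 0.83 to 1.55 for the 65 members. The part of level in this contrast was not tested.

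The L5-like RGD1564320_predicted (rn4 chr20:20822443-20822502) was the largest unmarked member. L5 is the large-subunit protein that carries 5S ribosomal RNA. Its levels were -0.87, -0.44, -0.01 and 0.12 in controls, -0.49, -0.15, -0.21 and 0.28 with DEHP and -0.32, 0.05, 0.12 and 0.75 with TOTM. They were 1.26, 1.24, 1.04 and 1.30 with EHO and 1.77, 2.03, 2.20 and 2.16 with MEHP. The EHO and MEHP arrays did not overlap with the other 3 groups or with each other. The EHO minus TOTM difference was 1.06 ± 0.23 (SE, limma adjusted p = 0.00759) and the EHO minus DEHP difference 1.35 ± 0.23 (adjusted p = 0.00328).

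The L35-like RGD1564550_predicted (rn4 chr10:79284381-79284440) behaved alike. It measured -0.15, 0.14, 0.38 and 0.56 in controls, 0.12, 0.42, 0.39 and 0.73 with DEHP, 0.06, 0.31, 0.58 and 1.22 with TOTM, 1.98, 1.94, 1.40 and 1.85 with EHO and 2.22, 2.51, 2.82 and 2.62 with MEHP. All EHO arrays were above all TOTM and DEHP arrays, by 1.25 ± 0.23 (limma adjusted p = 0.00238) and 1.38 ± 0.23 (adjusted p = 0.00275). The copy Rpl35l4 (LOC301725), whose upstream bases are printed above, had 0.08 to 1.05 in controls, 0.41 to 1.16 with DEHP, 0.42 to 1.42 with TOTM, 1.64 to 1.93 with EHO and 2.07 to 2.55 with MEHP. Its EHO minus TOTM difference was 0.94 ± 0.22 (limma adjusted p = 0.0125).

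Not every ribosomal copy with a large MEHP difference passed the test for EHO. Rpl37al2 (RGD1559951_predicted), an L37a-like gene, spread from 1.22 to 2.76 in controls, 1.79 to 2.99 with TOTM, 2.94 to 3.95 with EHO and 3.69 to 4.25 with MEHP. Its difference was 1.02 ± 0.37 from TOTM (limma adjusted p = 0.054) and 1.26 ± 0.37 from DEHP (adjusted p = 0.0498), so it was called against DEHP only. Rpl29-ps23 (RGD1560076_predicted), a pseudogene of a large-subunit protein gene, ran from 1.17 to 2.10 in controls, 1.01 to 2.79 with TOTM, 2.42 to 3.25 with EHO and 2.92 to 4.43 with MEHP, with 0.70 ± 0.35 between EHO and TOTM (limma adjusted p = 0.128). Rpl23a-ps6 (RGD1561843_predicted) ran from -1.61 to -0.97 in controls, -1.35 to -0.88 with EHO and -0.58 to 0.94 with MEHP. In it EHO overlapped with controls, and the 0.51 ± 0.24 between EHO and TOTM was not called (limma adjusted p = 0.101).

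Further ribosomal members were called in both comparisons. LOC689075, an L10-like copy, differed by 0.99 ± 0.18 between EHO and TOTM (limma adjusted p = 0.00246), Rpl11-ps10 (ENSRNOT00000005511) by 0.94 ± 0.16 (adjusted p = 0.00143), Rpl6-ps7 (LOC367276) by 0.82 ± 0.14 (adjusted p = 0.00137) and Rpl3-ps5 (ENSRNOT00000045407) by 0.66 ± 0.18 (adjusted p = 0.025). Outside the ribosomal group, the snRNP-F-like RGD1561993_predicted, a copy of a gene for a core protein of spliceosomal particles, was called in both as well. Its EHO minus TOTM difference was 0.88 ± 0.19 (limma adjusted p = 0.00765).

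**Figure D4:**
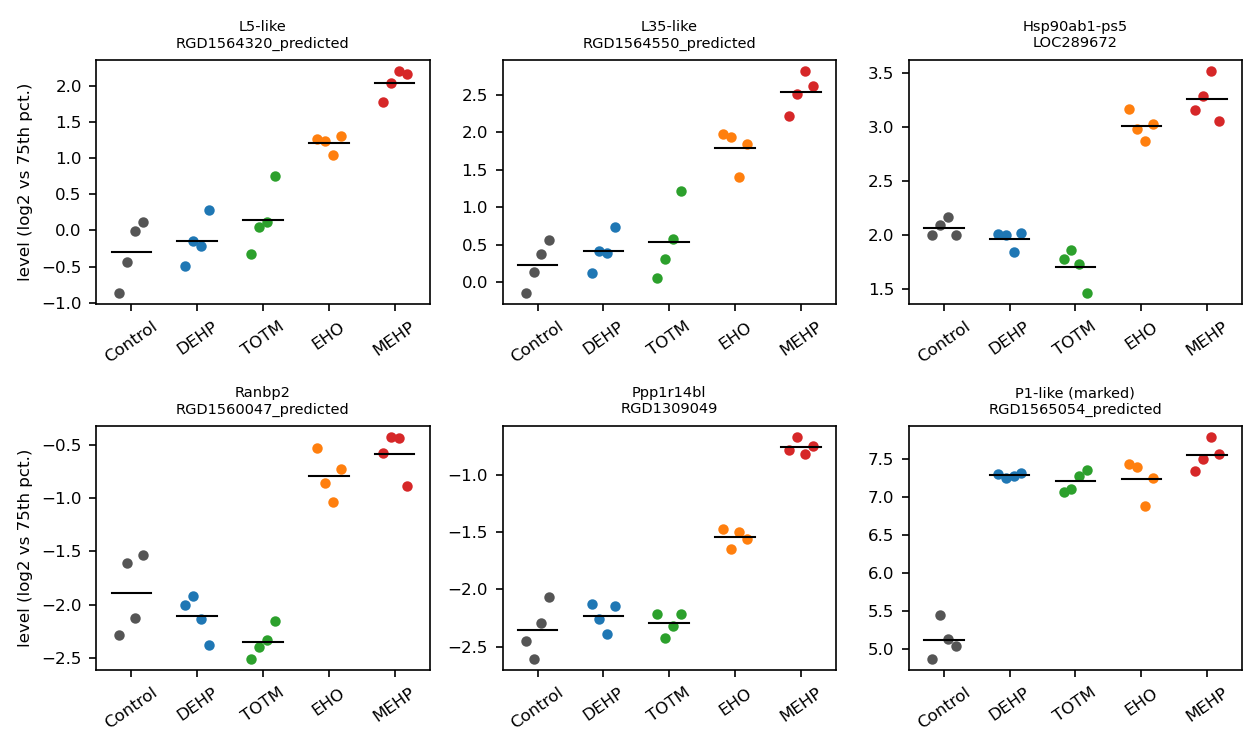
Level on each array (log2 processed signal minus the array's 75th percentile, vertical axis, with a scale of its own in each panel) of 6 members, with a line at the mean of 4 arrays of each group. In the first 5 panels the EHO and MEHP arrays lie above control, DEHP and TOTM, and in the last, the marked P1-like member, only the controls (4.86 to 5.44) stand apart.

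Members outside the ribosomal group rose with EHO as well. The largest EHO minus TOTM difference among the 188 was that of A_44_P760299, a probe with no text, at 1.63 ± 0.13 (limma adjusted p = 2.5e-05). It measured 1.83 to 2.44 with EHO and 2.22 to 2.63 with MEHP, against 0.24 to 0.72 with TOTM, 0.80 to 0.94 with DEHP and 0.88 to 1.10 in controls. Hsp90ab1-ps5 (LOC289672, rn4 chr14:70512731-70512790), a pseudogene of the HSP90-beta chaperone, had 3.17, 2.98, 2.87 and 3.03 with EHO, 3.16, 3.29, 3.52 and 3.06 with MEHP, 1.78, 1.86, 1.73 and 1.46 with TOTM, 2.01, 2.00, 1.84 and 2.02 with DEHP and 2.00, 2.09, 2.17 and 2.00 in controls. EHO and MEHP overlapped with each other and with no other group, and EHO minus TOTM was 1.30 ± 0.12 (limma adjusted p = 2.5e-05).

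Some members are now known as ordinary genes. The probe of Ranbp2 (RGD1560047_predicted, rn4 chr20:37271459-37271518) measured -0.53, -0.86, -1.04 and -0.73 with EHO, -0.58, -0.43, -0.44 and -0.89 with MEHP, -2.51, -2.39, -2.33 and -2.15 with TOTM, -2.00, -1.92, -2.13 and -2.38 with DEHP and -2.28, -1.61, -2.12 and -1.53 in controls. All EHO and MEHP arrays were above all others, and EHO minus TOTM was 1.55 ± 0.17 (limma adjusted p = 0.0001). Dcaf6 (RGD1561961_predicted) reached 1.45 to 2.64 with EHO, against 0.42 to 0.74 with TOTM, 0.23 to 0.57 with DEHP and 0.23 to 0.66 in controls. On its MEHP arrays it spread from 0.70 to 2.10, and EHO minus DEHP was 1.46 ± 0.25 (limma adjusted p = 0.00366).

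Ppp1r14bl (RGD1309049) is named for its likeness to an inhibitory subunit of protein phosphatase 1. Its EHO arrays and its MEHP arrays each stood apart, while control, DEHP and TOTM arrays overlapped. Levels were -2.61 to -2.07 in controls, -2.39 to -2.13 with DEHP, -2.42 to -2.21 with TOTM, -1.65 to -1.47 with EHO and -0.82 to -0.67 with MEHP. EHO minus TOTM was 0.75 ± 0.11 (limma adjusted p = 0.000609). Cts7l2 (RGD1308751_predicted), a cathepsin-like gene, followed MEHP and not EHO: it ran from -2.18 to -1.71 in controls, -1.91 to -1.14 with EHO and -1.14 to 0.29 with MEHP, and EHO minus TOTM was 0.19 ± 0.24 (limma adjusted p = 0.553).

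Members with no text made up 56 of the 188, and 36 of them were called higher with EHO than with TOTM and 38 higher than with DEHP. Among these, A_44_P102755 had its highest levels with EHO, 0.67 to 1.73, with 0.18 to 0.71 on MEHP, -0.47 to -0.06 on TOTM and -0.80 to 0.05 in controls. Its EHO minus DEHP difference of 1.63 ± 0.21 (limma adjusted p = 0.000551) was the largest of any member. TC628144, also without text, differed by 1.48 ± 0.20 between EHO and DEHP (adjusted p = 0.000809). ENSRNOT00000050366, without text, differed by 1.09 ± 0.16 between EHO and TOTM (adjusted p = 0.000567), and A_44_P575763 by 1.16 ± 0.25 (adjusted p = 0.00802). TC608427, whose text names only a fish protein, differed by 1.22 ± 0.15 (adjusted p = 0.000135).

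The genes that the copies resemble had a probe of their own in many cases. From the text or the current symbol, 86 members resembled 48 genes, and 38 of these genes had a named probe well above background on all MEHP and control arrays. In the comparison of EHO with TOTM, which involves no control array, 43 of the 67 members that resemble these 38 genes were called higher and none lower (limma, median 0.58). Of the 38 genes, 3 were called higher and none lower, with a median of 0.14. The 3 were Rps14 at 0.95 ± 0.17 (adjusted p = 0.00322), Rps2 at 0.37 ± 0.12 (adjusted p = 0.0416) and Tpt1 at 0.35 ± 0.11 (adjusted p = 0.038), which encode 2 small-subunit proteins and the translationally controlled tumour protein. The S14-like member stood below Rps14, at 0.60. Against DEHP, 40 of the 67 members and none of the 38 genes were called (limma, medians 0.66 and 0.06). Of the 67 members, 61 lay above their gene between EHO and TOTM and 60 between EHO and DEHP, differences that were not tested.

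For MEHP against control the marks matter. Of those 38 probes, 31 had a marked spot. Among them were the 9 that also passed the values of the rule, and none of the 7 unmarked ones did. The 7 were Gapdh, Ldha, Npm1, Ppia, Rpl24, Rpl3 and Ywhaq. They lay between -0.20 and 0.13 in MEHP minus control, where the 9 unmarked members that resemble them had a median of 0.88, which the rule fixed. Between EHO and TOTM none of these 7 genes was called (-0.15 to 0.34), whereas 4 of the 9 members were, and 6 of the 9 were called against DEHP. The 7 genes and the 9 members also differed in level, with control means of 2.59 to 6.06 and -2.32 to 1.70.

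Rpl3-ps5 stood at 0.66 ± 0.18 between EHO and TOTM and Rpl3 at -0.15 ± 0.15. Rpl24-ps11 stood at 0.88 ± 0.18 (limma adjusted p = 0.00481) and Rpl24 at 0.27 ± 0.12 (adjusted p = 0.101). Ppia-ps12, a pseudogene of the cyclophilin A gene, was at 0.59 ± 0.20 (adjusted p = 0.049) and Ppia at 0.06 ± 0.10 (adjusted p = 0.669). Npm1-ps1 and Npm1 lay within each other's errors, at 0.37 ± 0.20 and 0.34 ± 0.13. The 9 pairs were taken for what could be measured after the values were seen, and 3 of the 9 members resemble 1 gene, Gapdh.

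**Figure D5:**
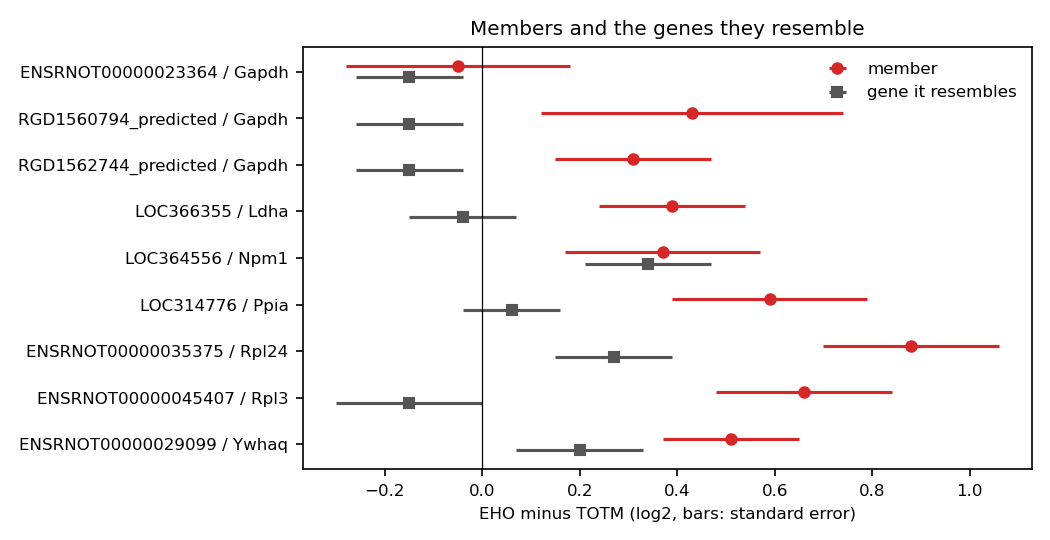
Fitted EHO minus TOTM difference (log2, horizontal axis, bars are standard errors) of 9 members with no marked spot (red circles) and of the named gene each resembles (grey squares). The genes lie between -0.15 and 0.34, and each member lies to the right of its gene, by least for Npm1.

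In the authors' deposited table of altered probes, 49 of the 152 unmarked members were listed for MEHP, 49 of them as higher, with a median fold change of 1.80 and a highest of 2.90. For EHO the authors' deposited table listed 27 of them, 27 as higher, with a median of 1.72. It listed none of the 152 for DEHP, and 2 for TOTM, both as lower. Of the 41012 probes on the array it listed 3827 for MEHP (57.1% of them higher) and 4210 for EHO (66.8% higher). It listed 1004 for DEHP (50.1% higher) and 3298 for TOTM (54.6% higher). All these comparisons are with controls, and the members were chosen on MEHP and control arrays, so the listings are given as a description. The marked members were listed with mixed signs: in the authors' deposited table, 13 of 20 listed for DEHP, 14 of 26 for EHO and 5 of 14 for MEHP were lower. Their direction in that table was thus often opposite to the processed signal used here, in which all 36 were higher than control with each compound.

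Named probes were judged by the same values. Of 11730 named probes, 63 passed (0.537%), and 43 of these had a marked spot. The 63 include 18 of the named probes with a ribosomal protein text (17.5%), and the other 45 are 0.387% of the remaining named probes. With marked probes set aside, 0.176% of named and 1.14% of unnamed probes passed, shares that were set side by side without a test. The turned rule, MEHP below control, found 13 unnamed probes (0.0958%) and 25 named ones (0.213%). The threshold of 0.75 cut through a continuous range. Just inside it lay ENSRNOT00000034844 (0.755), ENSRNOT00000050705 (0.763) and XM_222925 (0.765), and just outside lay TC601003 (0.748), XM_228557 (0.748) and XM_216335 (0.746).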

How the data were processed

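Intensity values of 20 arrays were deposited by the authors. Per the file headers they came from Agilent Feature Extraction 9.5.3.1 (version 9.5 per the submitters' processing notes), with spatial and multiplicative detrending of each array switched on. The authors' deposited table lists, for each probe, a fold change with its sign and a p-value, and its test is not given in the sources used here. The levels here are log2 processed signal minus the array's 75th percentile, with repeated spots averaged. The members and lists were chosen with earlier results of these data known.

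Spots marked as outliers were kept in the rule but set aside in the fits, where most marked members therefore have no control value. limma 3.58.1 in R 4.3.3 fitted 19 samples (MEHP 1 and 2 averaged, 14 residual and 2.59 prior degrees of freedom) over the 28113 probes that at least 1 group had well above background throughout, with calls at an adjusted p under 0.05. The p-values measure the spread between litter pools within the slide of each group. Variation between slides is not in that spread but enters every difference between groups. The number of arrays limits precision. The script was tested on simulated data. Named members were the 12 with the largest MEHP minus control difference, the 5 brightest, the 3 on each side of the threshold, up to 5 called per direction and comparison by size, and up to 10 with a current symbol; Rpl35l2, Rpl24-ps11, Ppia-ps12 and Npm1-ps1 were chosen after their values were seen. A resembled gene was represented by its brightest probe. Alternatives were other scalings, filters, variance models and sample sets.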

Additional observations from a re-analysis of the deposited data

Results flagged for a closer look

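In groups of 4 arrays, 1 array lay far from the other 3 in 4 of 136 groups checked over the named members, outside MEHP; chance gives about 1 in 20. XM_222771 was at 7.54 on TOTM replicate 4, with 7.31 to 7.34 on the other 3. Hsp90ab1-ps5 (LOC289672) was at 1.84 on DEHP replicate 3, with 2.00 to 2.02 on the others. Rpl35l4 (LOC301725) was at 1.64 on EHO replicate 3, with 1.88 to 1.93 on the others. Cts7l2 (RGD1308751_predicted) was at -2.18 on control replicate 1, with -1.79 to -1.71 on the others.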

How the results depend on the processing

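The rule found 188 probes, 321 with a mean difference over 0.50, 108 with one over 1, 105 after normexp correction and quantile normalization, 311 with MEHP 1 and 2 alone, and 188 to 231 with 1 array left out; the cause was not tested beyond the fewer arrays or other threshold. The alternatives with MEHP 1 and 2 alone, without EHO 1 and 2 and without marked members were chosen after seeing the data. Members called between EHO and TOTM (108) were 27 with at least a 2-fold difference, 69 in the 2 groups alone, 63 without EHO 1 and 2, and 81 to 118 with 1 array left out. Against DEHP (104) they were 33, 62, 64, and 77 to 128. Median scaling raised the members' median difference to 1.01 and 1.05, and that of all probes to 0.29 and 0.25. It turned the calls over all probes from 2358 higher and 3807 lower to 4621 and 2142 for EHO minus TOTM, and from 1017 and 880 to 1798 and 677 for EHO minus DEHP. Calls over all probes were 6165 and 1897, and 1876 to 12384 and 652 to 10075 with 1 array left out, highest without EHO 3 or 4. The fit of 2 groups alone gave 1184 and 273, the 2-fold threshold 2260 and 506, and the replicate block 4599 and 1459. TOTM minus DEHP gave 0 members under all alternatives run, and 10 probes without the MEHP arrays and 13 in the 2 groups alone. Replicate numbers did not pair the arrays (correlations -0.31 to 0.20), and with the replicate block 110, 108 and 0 members were called. Among uncalled marked members near 0 the sign of the EHO differences turned. For LOC311687 it reached 0.47 (TOTM) and 0.40 (DEHP) under median scaling and, with 1 array left out, -0.05 to 0.07 and -0.07 to 0.05. For RGD1565054_predicted it was 0.38 (DEHP, median scaling), -0.14, -0.12 and -0.09 (TOTM, the other 3 scalings), -0.14 without EHO 1 and 2, and, with 1 array left out, -0.03 to 0.15 (TOTM) and -0.12 to 0.07 (DEHP). For A_44_P431452 it was -0.04, -0.01 and -0.02 (DEHP, the other 3 scalings), -0.02 to 0.18 with 1 array left out, and -0.16 (DEHP) and -0.02 (TOTM) without EHO 1 and 2. For XM_222771 it was -0.05, -0.01 and -0.02, for RGD1560716_predicted -0.02 and for LOC679899 0.00.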

Other observations

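A pair of members is printed 10 times on each array, which gives a measure of spot noise. ENSRNOT00000028121 averaged 2.49 to 2.96 on control arrays, 2.55 to 3.16 on TOTM, 3.28 to 3.63 on EHO and 3.46 to 4.06 on MEHP. The SD over its 10 spots was 0.05 to 0.22 on any array. EHO and MEHP arrays were thus above all arrays of the other 3 groups. Hspa8-ps6 (LOC310891), a pseudogene of a constitutive heat shock protein gene, had a spot SD of up to 0.49. Its MEHP arrays overlapped with TOTM, at 2.76 to 3.61 against 2.63 to 3.17.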
